A study of Mus musculus with 6 samples.

Results

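The control group of this experiment consisted of dorsal pancreatic buds of mouse embryos at stage E11.5 that were cultured for 24 h with 0.1% DMSO, the solvent of the compounds given to the other groups. It was measured as 2 of the 6 arrays of the series, titled CTRL 1 and CTRL 2 here, and each array held the RNA of a pool of 10 buds. The other 4 arrays, of buds given a BET bromodomain inhibitor, I-BET151 or JQ1, were not used, and no comparison between conditions is made. The 2 arrays were chosen by their titles, and no measured value entered the choice. The labels give neither the strain nor the sex of the embryos. They do not state whether litters or days of culture differed between the pools, so biological and technical parts of their spread cannot be told apart. The buds were whole explants, so every value is an average over epithelium, mesenchyme, vessels, nerve precursors and blood. In such bulk samples, fewer cells of a type and less RNA per cell cannot be told apart.

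The dorsal bud grows out of the foregut endoderm as an epithelium of progenitors inside a cap of mesenchyme. Progenitors carry Pdx1 and Sox9, some switch on Neurog3 and leave the cycle to become endocrine cells, and others at the tips start to make digestive enzymes such as carboxypeptidase A1 (Cpa1). The first endocrine cells of the mouse dorsal bud are mainly glucagon cells, while most insulin cells arise later. Signals from the mesenchyme, FGF10 above all, keep the progenitors dividing.

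The values were array intensities on a linear scale, normalised by RMA, for 24010 genes with a name. They ran from 5 to 11028, with a median of 57 on both arrays. Genes were ranked by the mean of their log2 intensity, and a percentile states the percentage of named genes ranked at or below a gene. Probes of different genes bind with different strength, so a percentile orders signals and no fold is given between genes. The 61 genes of cytoplasmic ribosomal proteins, which every cell makes in quantity, show the limit of such ranks: 44 of 61 were above background, their median percentile was 53.8, and they ran from 4.33 to 99.9. As background, 1378 genes of olfactory, vomeronasal and trace amine receptors were used, which serve the nose and had a median intensity of 9 on both arrays. A gene was called above background where both pools exceeded the 95th percentile of these receptor genes, 26 in CTRL 1 and 29 in CTRL 2. By this rule 14901 of 24010 genes (62.1%) were above background, among them 13559 of 19640 protein-coding genes (69.0%) and 57 of the 1378 receptor genes themselves (4.14%). Counts of list genes above background are to be read against these shares. With 2 arrays of 1 group there was no test, and both values are given for each gene (n = 2), CTRL 1 first.

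The pools agreed closely. Over all 24010 genes, Pearson's r of the log2 intensity was 0.996 and Spearman's rho was 0.995, across genes, which are not independent replicates. Among genes above background the median difference between the pools was 1.07-fold, and 88.5% of these genes lay within 1.2-fold. Of all named genes, 334 (1.39%) differed by more than 1.5-fold. Of the 14901 genes above background, 150 (1.01%) did so: 78 (0.523%) were higher in CTRL 1 and 72 (0.483%) were higher in CTRL 2. Divided into 5 groups of equal size by level, 2.54% of the genes in the middle group but 0.187% of the brightest differed that far, and the pooled SD of the log2 intensity was 0.170 and 0.089 in these groups.

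All 5 genes taken as marks of this tissue were above background in both pools. Sox9, a factor of the progenitor epithelium, read 1531 and 1475, which placed it at percentile 97.7. Pdx1, the homeobox factor needed for growth of the pancreas, read 252 and 228 at percentile 72.9. Neurog3, the switch of endocrine commitment, read 432 and 520 at percentile 85.0. Gcg, the gene of glucagon, read 5478 and 5494 at percentile 99.9, and Cpa1 read 2925 and 3183 at percentile 99.6. These 5 genes were given with the label of the tissue, and 62.1% of all named genes were above background, so their signal is a description only. None of the 5 differed by more than 1.5-fold between the pools, against 1.01% of all genes above background.

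**Figure D1:**
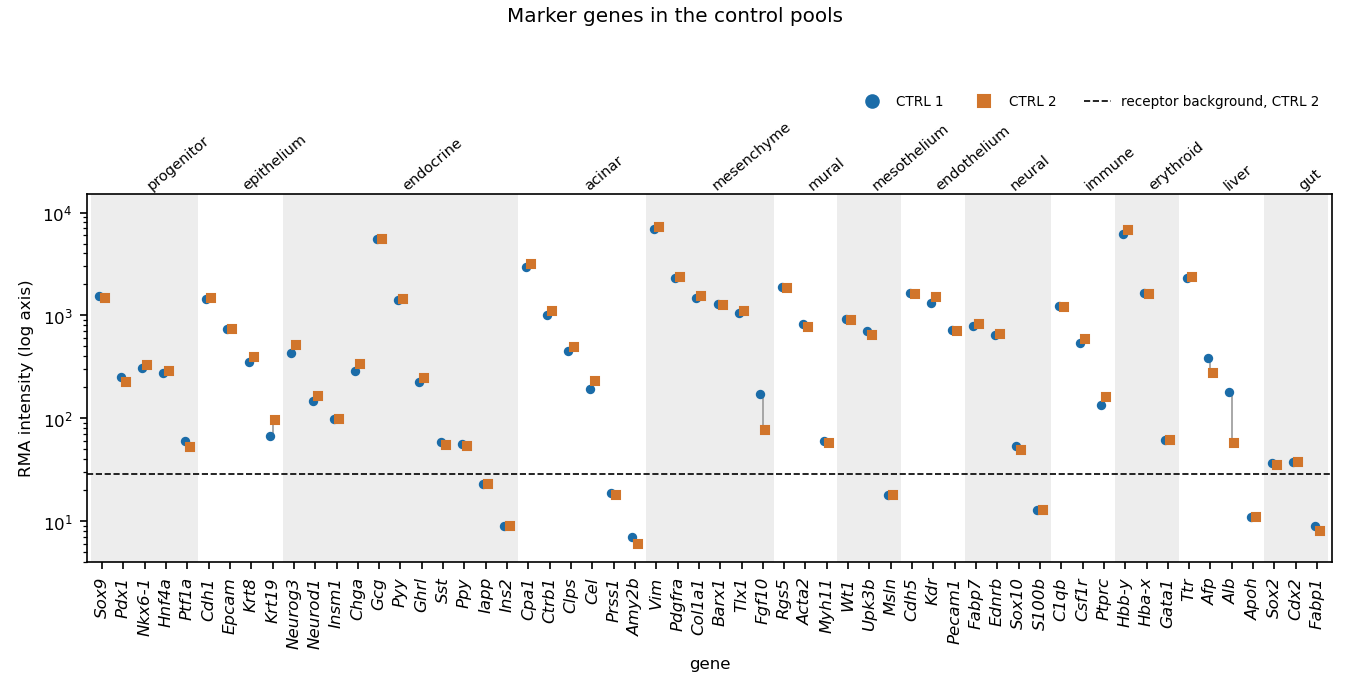
Intensity of marker genes in CTRL 1 (circles) and CTRL 2 (squares) on a log axis, grouped by cell type along the horizontal axis, with the receptor background of CTRL 2 (29) as a dashed line. The pools lie nearly on top of each other for most genes, while Alb (179 and 58) and Fgf10 (173 and 78) stand apart, and Ins2, Amy2b, Msln and S100b lie below the line.

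The 20 brightest protein-coding genes included Pabpc1, which binds the poly(A) tail (7960 and 8695), the chaperone Hspa8 (7772 and 7980), the tubulin Tubb5 (7815 and 7278) and the actin Actb (7172 and 7610). Vim, the intermediate filament of mesenchyme, read 6967 and 7184, and Hbb-y, the embryonic beta-like globin, 6181 and 6727. Gcg was the only hormone gene among the 20, at rank 25 of all named genes. The rest were Nedd4, Fth1, Pcbp2, Scd2, Eef2, Cox6a1, Ctsb, Cd81, Hnrnpab, Capns1 and 3 imprinted genes, Mest (6702 and 6516), Peg3 (5877 and 5838) and Grb10 (5446 and 5156). The largest difference between the pools among these 20 was that of Scd2, a fatty acid desaturase (6224 and 5311, 1.17-fold).

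Of the 23 measured transcription factors of the pancreatic epithelium and its progenitors, all 23 were above background and 12 were in the top 25% of named genes, with a median percentile of 75.7. Behind Sox9 came the zinc finger factor Gata6 (947 and 822), the Wnt effector Tcf7l2 (810 and 790), the Notch target Hes1 (714 and 705) and the nuclear receptor Nr5a2 (598 and 611). Nkx6-1, which marks progenitors and later beta cells, read 307 and 328, and Hnf4a, a nuclear receptor of gut-derived epithelia, read 276 and 286. Foxa2, a factor of all endoderm, read 288 and 289, and Onecut1, which acts upstream of Neurog3, 319 and 326. The lower end held the motor neuron and pancreas factor Mnx1 (67 and 61), Ptf1a, which is needed for the exocrine lineage (60 and 53), Foxa1 (51 and 46) and Onecut2 (32 and 32). None of these 23 factors differed by more than 1.5-fold between the pools, against 1.01% of all genes above background.

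Ptf1a and Mnx1 lay in a range that genes of other organs also reached. Of 19 genes of muscle, heart, lung, lens, skin, kidney, astrocytes and germ cells, 7 were above background, against 62.1% of all named genes, and none was in the top 25%. The highest were the sperm protamine Prm2 (106 and 115), the cardiac troponin Tnnt2 (65 and 59) and the muscle factor Myog (55 and 63), followed by the protamine Prm1 (43 and 48) and the muscle factor Myod1 (32 and 34). The lung factor Nkx2-1 read 18 and 20. A signal of up to about the level of Prm2 is therefore also seen for genes of cells the bud should not hold, and the source of that signal was not tested.

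Epithelial genes were bright. Of 28 measured genes of adhesion, keratins, tight junctions and ducts, 25 were above background, with a median percentile of 78.1. The junction protein gene Tjp1 read 1460 and 1580, E-cadherin (Cdh1) 1433 and 1463, and Epcam 735 and 733. The protease inhibitors Spint2 (917 and 976) and Spint1 (785 and 794) and the lectin Lgals3 (765 and 963) were bright too. Keratins of simple epithelia followed at Krt8 357 and 398 and Krt18 258 and 269, while the duct keratin Krt19 was lower, at 68 and 96. Cftr, the chloride channel (11 and 9), Pkhd1, a gene of cilia (25 and 33), and Krt20 (18 and 18) were not above background. Pkhd1 passed the limit in CTRL 2 alone. Other genes of the list, among them Krt7, Slc4a4, Muc1 and Anxa4, were above background, so nothing is said of mature ducts as a whole.

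All 22 measured genes of endocrine commitment were above background, against 62.1% of all named genes, with a median percentile of 64.9. Sox4 (1624 and 1741) and Isl1 (715 and 638) were high, as were Tox3 (857 and 865), Runx1t1 (830 and 817) and Sox11 (499 and 550), but the mesenchyme of the foregut also carries Isl1. Neurog3 was followed by Rfx3 (382 and 427), Nkx2-2 (296 and 302) and Neurod1, a direct target of Neurog3 (147 and 164). Rfx6 read 118 and 111, Insm1 99 and 98, and Pax4, a factor of the beta and delta lineages, 73 and 66. Insm1, Pax4, St18 (52 and 56), Myt1 (45 and 47) and Neurod2 (36 and 31) lay below the level of Prm2. They were thus within the range of the genes of other organs, and Rfx6 was close to it. Of these 22 genes, 14 were higher in CTRL 2 and 8 in CTRL 1, against 45.4% and 51.5% of all genes above background. None of the 22 differed by more than 1.5-fold, against 1.01% of all genes above background.

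Among hormones, glucagon dominated. Of 15 measured hormone genes of islet and gut endocrine cells, 11 were above background. Peptide YY (Pyy), which early islet cells make together with glucagon, followed Gcg with 1424 and 1435 at percentile 97.4. Ghrl, the gene of ghrelin, read 228 and 247 at percentile 72.7. The gut hormone genes Cck (128 and 163), Gast (119 and 122), Gip (81 and 86) and Sct (65 and 63), and the neuropeptide gene Npy (77 and 82), came next. Sst, the gene of somatostatin, read 59 and 55, Ppy, of pancreatic polypeptide, 56 and 54, and Nts, of neurotensin, 50 and 48. Gip, Npy, Sct, Sst, Ppy and Nts all lay below the level of Prm2, within the range of the genes of other organs. Iapp, the beta cell peptide amylin (23 and 23), and Ins2, an insulin gene (9 and 9), were not above background, and neither were Vip (15 and 16) and Tac1 (13 and 14). Ins2 thus read exactly the median of the nasal receptor genes in both pools. The pools gave nearly the same value for each hormone gene, the widest gap being that of Cck.

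Genes of hormone granules and glucose sensing were mixed: 21 of 26 were above background and 7 were in the top 25%, with a median percentile of 63.9. Cpe, which trims prohormones, read 907 and 890, the glucose transporter gene Slc2a2 544 and 655, and Chga, chromogranin A, 292 and 339. Pam, which amidates peptide hormones, read 680 and 646, and Rbp4, the carrier of retinol, 470 and 493. The prohormone convertase Pcsk1 was lower, at 49 and 58. Genes known from mature beta cells were split. The subunits of the potassium channel that couples glucose to insulin release, Abcc8 (262 and 292) and Kcnj11 (73 and 83), were above background, as was Mafa of the commitment list (118 and 112). G6pc2 (14 and 13), the zinc transporter Slc30a8 (11 and 14) and the receptor Glp1r (21 and 19) were not. Kcnj11 lay below the level of Prm2, within the range of the genes of other organs, and Mafa was close to that level.

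Only part of the acinar programme gave signal. Of 34 measured acinar genes, 16 were above background, and the median percentile of the list was 35.7. Behind Cpa1 came chymotrypsinogen (Ctrb1, 1005 and 1115), the elastase Cela1 (582 and 703), the lipase-related Pnliprp1 (528 and 648) and colipase (Clps, 456 and 494). Cckar, the receptor for cholecystokinin, read 321 and 398, and Rbpjl, a partner of Ptf1a in acinar cells, 256 and 227. Also above background, Try4 (102 and 99), Cela2a (87 and 100), Ctrl, Sycn, Ctrc, Dnase1, Bhlha15 and Pnliprp2 lay below the level of Prm2. They were thus within the range of the genes of other organs. Amylase (Amy2b, 7 and 6), the trypsinogen Prss1 (19 and 18), carboxypeptidase B (Cpb1, 13 and 14) and the zymogen granule gene Gp2 (14 and 13) were at background. Trypsinogen, elastase and amylase genes have near-identical copies, so probes may be shared among them and their values are uncertain. Of the 16 genes above background, 11 were higher in CTRL 2 and 3 in CTRL 1, against 45.4% and 51.5% of all genes above background. None of the 16 differed by more than 1.5-fold, against 1.01% of all genes above background.

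The promoters of these hormone and enzyme genes were searched for the TATA box, which fixes the start of transcription in many tissue-specific genes. The letters TATAAA were looked for on both strands in the 100 bases before the RefSeq start in GRCm38.p6, and 15241 of the named genes (63.5%) had a single entry. They were found in 5 of 12 hormone genes and 8 of 26 acinar genes with an entry, against 6.25% of all 15241. The 3 hormone or enzyme genes of the highest level that hold the letters are shown with Cpa1, which does not, from 5′ to 3′ with each match in capitals.
Gcg, chr2:62483654-62483753, minus strand: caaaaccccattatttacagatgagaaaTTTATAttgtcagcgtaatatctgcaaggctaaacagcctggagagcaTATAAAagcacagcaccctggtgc
Cela1, chr15:100687921-100688020, minus strand: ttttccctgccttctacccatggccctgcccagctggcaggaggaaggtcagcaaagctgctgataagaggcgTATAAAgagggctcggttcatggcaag
Gast, chr11:100334307-100334406, plus strand: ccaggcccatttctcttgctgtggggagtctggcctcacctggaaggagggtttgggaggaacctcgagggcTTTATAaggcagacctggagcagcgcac
Cpa1, chr6:30639118-30639217, plus strand: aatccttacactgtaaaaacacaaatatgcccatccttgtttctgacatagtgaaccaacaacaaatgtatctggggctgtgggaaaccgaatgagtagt
The nearest match begins 24 bases before the start in Gcg, 27 in Cela1 and 28 in Gast, and a further match lies upstream in Gcg. In the window of Cpa1 these letters do not occur.

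Mesenchyme gave the highest median among the cell type lists. Of 40 measured mesenchyme genes, 37 were above background and 26 were in the top 25% of named genes, with a median percentile of 82.7. Behind Vim stood Ptn, a secreted growth factor (2461 and 2302), Pdgfra, the receptor for platelet-derived growth factor (2293 and 2359), and the factors Snai2 (1892 and 1824) and Osr1 (1731 and 1733). Collagen genes were high as well, with Col1a1 at 1480 and 1531 and Col1a2 at 1145 and 1192. Factors of the mesenchyme around stomach and spleen were among the bright ones: Barx1, of stomach mesenchyme, read 1290 and 1268, Tlx1, which is needed for the spleen, 1047 and 1107, and Nkx2-5 390 and 408. Late fibroblast genes were dimmer, with Lum not above background (23 and 25) and Dcn at 315 and 302.

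Mural and lining cells were seen beside them. All 15 genes of smooth muscle and pericytes were above background, led by the pericyte genes Rgs5 (1883 and 1843), Kcnj8 (1029 and 1076) and Abcc9 (665 and 767). Mcam, an adhesion gene, read 547 and 562. Genes of the contractile apparatus were lower, at 60 and 58 for the smooth muscle myosin Myh11 and 54 and 39 for calponin (Cnn1), apart from the actin Acta2 (831 and 767). Of 11 genes of the mesothelium, the sheet of cells that covers the organ, 8 were above background, led by Wt1 (919 and 911), Podxl (767 and 697) and Upk3b (701 and 641), with Upk1b at 438 and 450. Msln, a marker of mature mesothelium, read 18 and 18. Of those 8 genes, 7 were higher in CTRL 1, against 51.5% of all genes above background. None of the 8 differed by more than 1.5-fold, against 1.01% of all genes above background.

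Vessels and blood were also present. Of 29 endothelial genes, 28 were above background with a median percentile of 75.6, and the adhesion gene Cdh5 (1640 and 1611), the VEGF receptor Kdr (1324 and 1508) and the ETS factor Fli1 (1208 and 1183) led. Emcn, a sialomucin of vessels, read 856 and 748, and Pecam1 724 and 707. Etv2, which acts at the start of the endothelial lineage, was at background (29 and 26), and Vwf, of mature vessels, read 45 and 45. Of 18 immune genes, 17 were above background, led by macrophage genes: C1qb, of complement (1247 and 1196), Cd68 (1016 and 1120) and Fcer1g (901 and 952), with the mannose receptor Mrc1 at 521 and 661 and Csf1r, the receptor for macrophage growth factor, at 540 and 592. The general leukocyte gene Ptprc was lower, at 134 and 162. Of 13 erythroid genes, 12 were above background, and the embryonic globins Hbb-y and Hba-x (1668 and 1610) led. Hbb-bh1, another embryonic globin, read 299 and 301. The adult globin genes differed in signal, with Hbb-bt at 135 and 150 and Hbb-bs at 8 and 11, but globin genes of the same cluster are alike in sequence and could share probes.

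Of 25 genes of neural crest, glia and neurons, 24 were above background, with a median percentile of 69.1. Fabp7, a lipid-binding protein of glial precursors, read 795 and 829, Hand2 677 and 643, and Ednrb, the endothelin receptor of migrating crest cells, 641 and 665. Neuronal genes were spread widely. Gap43, of growing axons, read 527 and 498 and the neurofilament Nefm 489 and 359, while Tubb3 (45 and 35), L1cam (43 and 44), Prph (41 and 35) and Elavl4 (38 and 37) lay in the range of the genes of other organs. The crest factor Sox10 itself read 54 and 49, also in that range, and the later glial gene S100b was at background (13 and 13). Hand2 and Ednrb are also made by other cells of the embryo, so they do not stand for nerve precursors alone.

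Genes of the neighbouring organs were read beside these. Of 18 stomach and intestine genes, 7 were above background and none was in the top 25%. The brightest were the factor Pitx1 (82 and 78) and the trefoil genes Tff3 (53 and 71) and Tff1 (43 and 40), all below the level of Prm2. The foregut factor Sox2 read 37 and 35, Cdx2, of the intestine, 38 and 38, Olfm4 35 and 38, and the enterocyte gene Fabp1 9 and 8. Of 18 liver genes, 10 were above background, but the list was split. Ttr (2328 and 2376), Serpina6 (1654 and 1927) and Serpina1b (1482 and 1494) were bright, and Ttr is made by early islet cells too. Trf, the gene of transferrin, read 677 and 630. Afp, the fetal serum protein, read 388 and 279, and Alb, the gene of albumin, 179 and 58. Apoh (11 and 11), Fga (18 and 14) and Apob (24 and 20) were not above background.

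**Figure D2:**
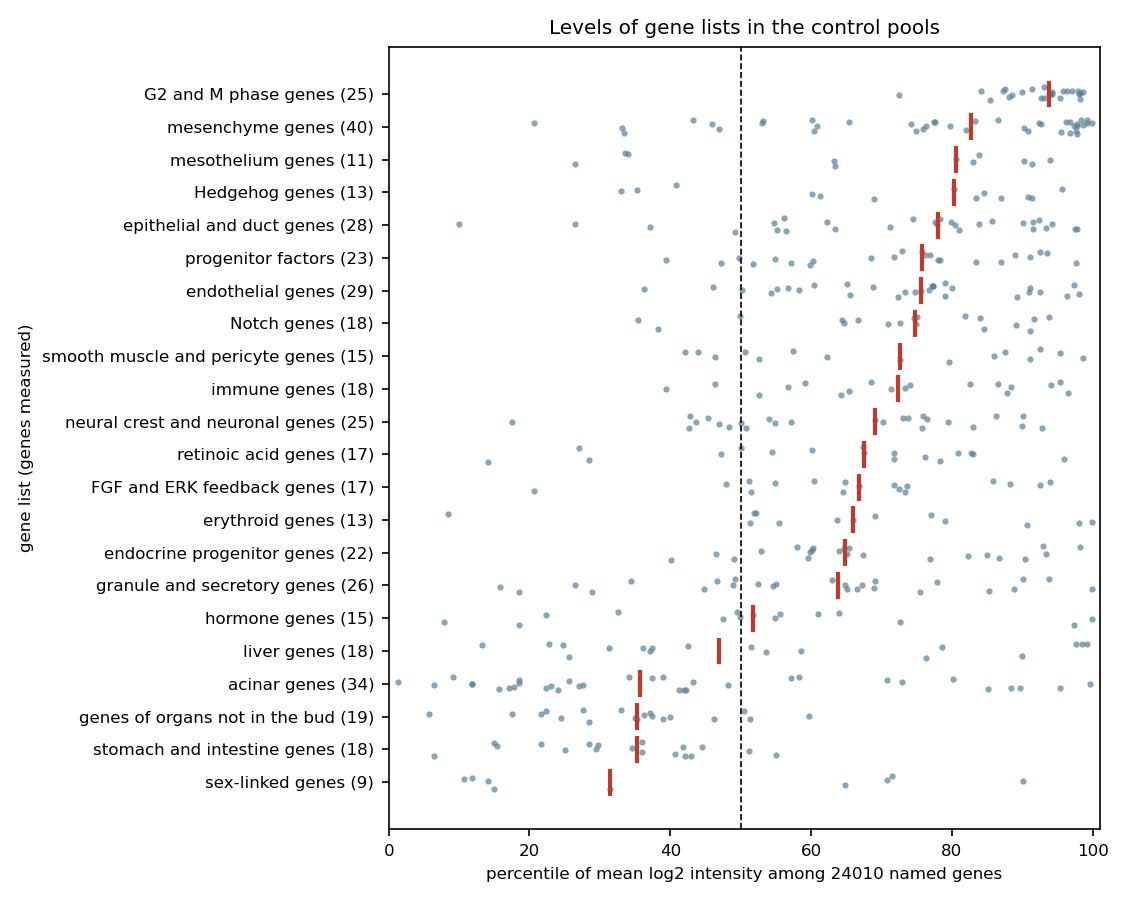
Percentile of each measured gene among 24010 named genes (horizontal axis) for 22 gene lists (vertical axis, number of genes in brackets), with the median of each list as a red bar and the 50th percentile as a dashed line. Genes of mitosis (median 93.9) and mesenchyme (82.7) lie highest, and acinar genes (35.7) reach from 1.27 to 99.6.

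Mitosis genes had the highest median of the 22 lists. All 25 genes of the G2 and M phases were above background and 24 were in the top 25%, with a median percentile of 93.9. Mki67, the proliferation antigen, read 1846 and 2002, Top2a, a topoisomerase, 1721 and 1594, the cyclin Ccna2 1713 and 1587, the kinase Plk1 1651 and 1561, and Ube2c, of the anaphase-promoting pathway, 1650 and 1464. Of the 25, 22 were higher in CTRL 1, against 51.5% of all genes above background, and the median of CTRL 2 minus CTRL 1 was -0.11 on the log2 scale. None of the 25 differed by more than 1.5-fold, against 1.01% of all genes above background.

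Promoters of mitosis genes are known for the CCAAT box, which binds the factor NF-Y. The letters CCAAT occurred, on either strand of the same 100 bases, in 14 of 20 mitosis genes with an entry, against 21.2% of all promoters. The 3 brightest that hold them are given with the matches in capitals.
Top2a, chr11:99024190-99024289, minus strand: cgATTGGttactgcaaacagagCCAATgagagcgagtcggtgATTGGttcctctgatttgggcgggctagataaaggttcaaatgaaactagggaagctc
Plk1, chr7:122159335-122159434, plus strand: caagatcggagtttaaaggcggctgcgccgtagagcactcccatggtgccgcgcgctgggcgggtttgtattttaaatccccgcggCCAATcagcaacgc
Ube2c, chr2:164769829-164769928, plus strand: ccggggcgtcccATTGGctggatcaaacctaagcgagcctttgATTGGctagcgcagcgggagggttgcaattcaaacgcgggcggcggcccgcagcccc
Top2a holds 3 matches, Ube2c 2 and Plk1 1. The letters TATAAA occurred in 0 of the 20.

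Most genes of the FGF and Notch pathways gave signal. Of 17 FGF genes, 16 were above background, with a median percentile of 66.8. Fgfr2, which receives FGF10 in the epithelium, read 548 and 615, Fgfr1 827 and 776, and Fgfrl1, a receptor without a kinase domain, 515 and 480. The feedback phosphatase Dusp6 read 938 and 888, and the target factors Etv5 253 and 201 and Etv4 83 and 76. Of the ligands, Fgf9 read 233 and 260, Fgf10 173 and 78, and Fgf7 was at background (14 and 15). Of 18 Notch genes, 17 were above background, with the receptor Notch2 (827 and 974), the ligands Jag1 (744 and 744) and Dll4 (575 and 652) and the target Hes1 in front. Dll1, the ligand of endocrine precursors, read 143 and 157, the target Hey2 449 and 472, and Hes5 was at background (29 and 24).

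In the Hedgehog pathway the ligands Shh and Dhh parted from most of the machinery. Shh, which is kept off in pancreatic endoderm, read 26 and 26 and Dhh 24 and 23, both not above background. Ihh was above background at 121 and 124, but close to the level of Prm2 (106 and 115). The transducer Smo (1099 and 1093), the receptor Ptch1 (367 and 355) and the factors Gli3 (475 and 452) and Gli2 (424 and 436) were bright, as were Sufu, which restrains Gli factors (770 and 688), and the co-receptors Gas1 (677 and 704) and Boc (536 and 531). Gli1, a target of the pathway, was dim but above background at 37 and 32, within the range of the genes of other organs. Hhip (110 and 118) was close to the level of Prm2. Whether the pathway was active was not tested. In retinoic acid metabolism, the synthetic enzymes Rdh10 (1092 and 1176) and Aldh1a2 (457 and 387) were high, and Aldh1a2 is made in mesenchyme and mesothelium. Aldh1a3 (20 and 19) and the degrading enzyme Cyp26a1 (11 and 12) were at background, while Cyp26b1 read 124 and 105. The retinal reductase Dhrs3 read 393 and 438, and Stra6, a receptor that takes up retinol, 342 and 305. Among receptors, Rxra read 372 and 378, Rara 291 and 284, Rarb 225 and 226 and Rarg 82 and 73.

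Of 560 transcription factors found by the symbols of their families, 438 were above background and 164 (29.3%) were in the top 25%, with a median percentile of 57.9. The brightest was Ybx3, a cold-shock domain protein that also binds RNA (2833 and 2690), followed by Meis1, a partner of Hox proteins (2661 and 2440), the fetal chromatin protein Hmga2 (2479 and 2289), Nfib (2279 and 2443) and the E protein Tcf3 (2084 and 2015). Id2, which blocks E proteins, read 2095 and 1880, and Smad4, the shared effector of TGF-beta and BMP signals, 1929 and 1945. Of the 20 brightest, Snai2, Osr1, Tcf21, Nr2f2 and Barx1 are on the mesenchyme list, Sox9 is on the progenitor list, and Sox4 is on the list of endocrine commitment. The others were Meis2, Xbp1, Tead2, Ctcf, Foxp1 and Ets2. The largest difference between the pools among these 20 was that of Tcf21 (1619 and 1378, 1.17-fold).

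Families differed in how many members gave signal. All 15 of the Tcf/Lef, Tead and Smad group were above background, with a median percentile of 88.2, as were all 10 members of the E2F family, activators and repressors of cell cycle genes counted with their partners Tfdp1 and Tfdp2 (82.6). Of 71 bHLH factors 58 were above background, and of 19 Sox factors 17. At the other end stood the Pax factors with 2 of 8, Pax4 being the brightest of them, and the T-box factors with 7 of 15. Of the 438 transcription factors above background, 4 differed by more than 1.5-fold, against 1.01% of all genes above background, each higher in CTRL 1: the nuclear receptor Nr1h5 (202 and 117), Lhx2 (188 and 105), Six2 (84 and 55) and Twist2 (56 and 36).

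Hox genes, which give cells their place along the body axis, were brightest among the lower-numbered members of the HoxA and HoxB clusters. Of 22 measured genes of paralogue groups 1 to 8, 20 were above background with a median percentile of 64.3, and of 16 genes of groups 9 to 13, 4 were above background with a median of 34.5. The split after group 8 was chosen after the values were seen. Hoxa5 (625 and 494), Hoxb5 (526 and 482) and Hoxb6 (372 and 315) were the brightest. In HoxC, levels fell from Hoxc4 (134 and 104) to Hoxc6 (46 and 56). In HoxD, Hoxd3 (45 and 46), Hoxd4 (42 and 34) and Hoxd8 (77 and 76) lay below the level of Prm2. Hoxc8 (17 and 19) and Hoxd1 (19 and 18) were not above background. Hoxb9 (93 and 106) was the brightest beyond group 8, and Hoxa13, at 25 and 25, was at background.

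**Figure D3:**
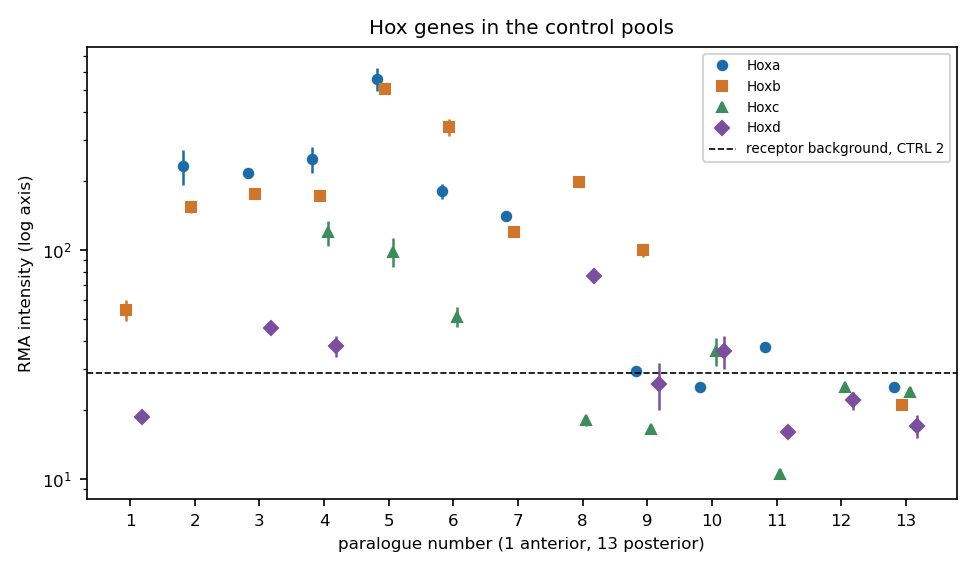
Mean intensity of 38 Hox genes (log axis) by paralogue number, with the cluster given by colour and shape, a vertical line from the lower to the higher pool, and the receptor background of CTRL 2 (29) as a dashed line. Levels are highest at paralogue 5 (Hoxa5, 625 and 494) and mostly below the line from paralogue 9 on.

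The GC box GGGCGG, a site of SP and KLF factors, occurred in 142 of 322 transcription factor promoters (44.1%), against 32.6% of all. The 3 transcription factors of the highest level that hold it are given with the matches on either strand in capitals.
Ybx3, chr6:131388451-131388550, minus strand: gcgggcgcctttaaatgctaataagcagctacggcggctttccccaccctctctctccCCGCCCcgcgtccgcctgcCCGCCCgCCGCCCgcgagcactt
Tcf3, chr10:80433636-80433735, minus strand: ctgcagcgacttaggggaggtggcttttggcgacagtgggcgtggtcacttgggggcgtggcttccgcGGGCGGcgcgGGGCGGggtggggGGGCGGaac
Id2, chr12:25096093-25096192, minus strand: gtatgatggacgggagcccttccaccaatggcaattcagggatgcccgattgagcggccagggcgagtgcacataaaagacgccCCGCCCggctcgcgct
The nearest matches begin 16, 9 and 16 bases before the start.

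Over all 15241 promoters, sequence went with level. The genes were divided by level into 5 groups of about 3048. GGGCGG occurred in 4.89% of the dimmest, 37.7% of the middle and 52.4% of the brightest group. The ratio of observed to expected CpG in all 300 bases of an entry had a median of 0.152, 0.570 and 0.832 in the same groups, and the GC content was 43.0%, 58.3% and 62.7%. TATAAA went the other way, from 13.6% over 4.89% to 2.13%, although Gcg, among the brightest, holds it. CCAAT changed from 18.6% to 24.9%, and the E-box CACGTG from 1.25% to 5.15%. A match was counted whether or not it shared bases with another motif. Among genes above background alone, the gap in GGGCGG between dimmest and brightest was 20.3 percentage points, against 47.5 over all genes.

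**Figure D4:**
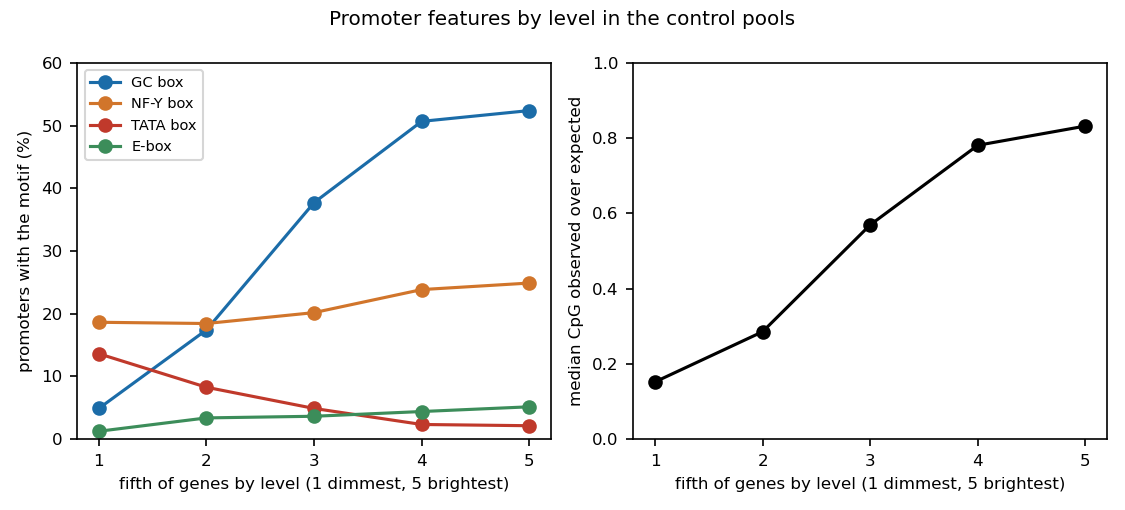
Left, percentage of promoters that hold each of 4 motifs in the 100 bases before the start; right, median ratio of observed to expected CpG; both by group of genes from the dimmest (1) to the brightest (5). The NF-Y box is CCAAT. The GC box goes from 4.89% to 52.4% and the TATA box from 13.6% to 2.13%.

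Some of the 150 genes above background that differed by more than 1.5-fold (1.01%) belonged to the lists. They were 4 of 4 sex-linked genes above background and 2 of 37 mesenchyme genes. The lists of 15 smooth muscle and pericyte, 12 erythroid, 10 liver and 16 FGF genes above background held 1 each. Fgf10 is on both the mesenchyme and the FGF list. Xist, the RNA of the inactive X chromosome, read 354 and 1222, 3.45-fold higher in CTRL 2. The Y genes Eif2s3y (374 and 122, 3.07-fold), Kdm5d (218 and 104, 2.10-fold) and Uty (298 and 165, 1.81-fold) were higher in CTRL 1. These were the 4 genes of the sex-linked list above background, against 1.01% of all genes above background that differed by more than 1.5-fold, and the list's Sry read 21 and 23. The other Y-linked gene above background was a pseudogene, Gapdh-ps15 (122 and 53), which resembles other Gapdh copies, so its value is uncertain. Xist and these Y genes were above background in both pools. Of 495 X-linked genes above background 5 differed that far, with a median difference of -0.01 on the log2 scale. Ddx3x (1569 and 1729), Kdm6a (801 and 879) and Kdm5c (738 and 842), which escape X inactivation and were chosen after their values were seen, were 1.10- to 1.14-fold higher in CTRL 2.

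Single liver and red cell genes differed between the pools. Alb was 3.09-fold higher in CTRL 1, Afp (388 and 279) 1.39-fold, and 7 of the 10 liver genes above background were higher there, against 51.5% of all genes above background. Alb alone of these 10 passed 1.5-fold. Ttr, Serpina6 and Serpina1b, the 3 brightest of the list, were not. Of 12 erythroid genes above background, 9 were higher in CTRL 2, against 45.4% of all genes above background, among them Slc4a1, the anion exchanger of red cells (616 and 758), Alas2, the enzyme that starts haem synthesis (270 and 420), and Ermap (157 and 233). Alas2 alone of these 12 passed 1.5-fold, at 1.56-fold. Of 17 immune genes above background, 13 were higher in CTRL 2, against 45.4% of all genes above background. None of the 17 differed by more than 1.5-fold, against 1.01% of all genes above background. Fgf10 was 2.22-fold higher in CTRL 1, while none of the other FGF genes listed above background differed by more than 1.5-fold. Of 16 FGF genes above background, 9 were higher in CTRL 1 and 6 in CTRL 2, against 51.5% and 45.4% of all genes above background. The target Etv5 (253 and 201) was 1.26-fold higher in CTRL 1, while Etv4 (83 and 76), Spry1 (251 and 248) and Dusp6 (938 and 888) differed less. With 1 pool on each side, none of these differences could be tested.

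By the rule of the largest differences among protein-coding genes above background, Alb, Eif2s3y, Fgf10, Kdm5d, Rsph3b (107 and 53), Tcerg1l (94 and 48), the desaturase Scd1 (136 and 72), the histone gene H3c15 (82 and 44), Nepn (223 and 121) and Uty were those higher in CTRL 1. Those higher in CTRL 2 were dim: Rpl23a (47 and 107), Defa25 (54 and 120), Pcdhga2 (64 and 130), Olfr1333 (51 and 95), Lce3c (43 and 80), Vmn1r119 (39 and 71), Ugt1a7c (39 and 71), Mettl7a2 (80 and 144), Pcdha3 (55 and 97) and Grm7 (43 and 75). Olfr1333 and Vmn1r119 belong to the receptor families that set the background. Pcdhga2, Pcdha3 and Ugt1a7c share exons with neighbours in their clusters, so their values are uncertain.

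**Figure D5:**
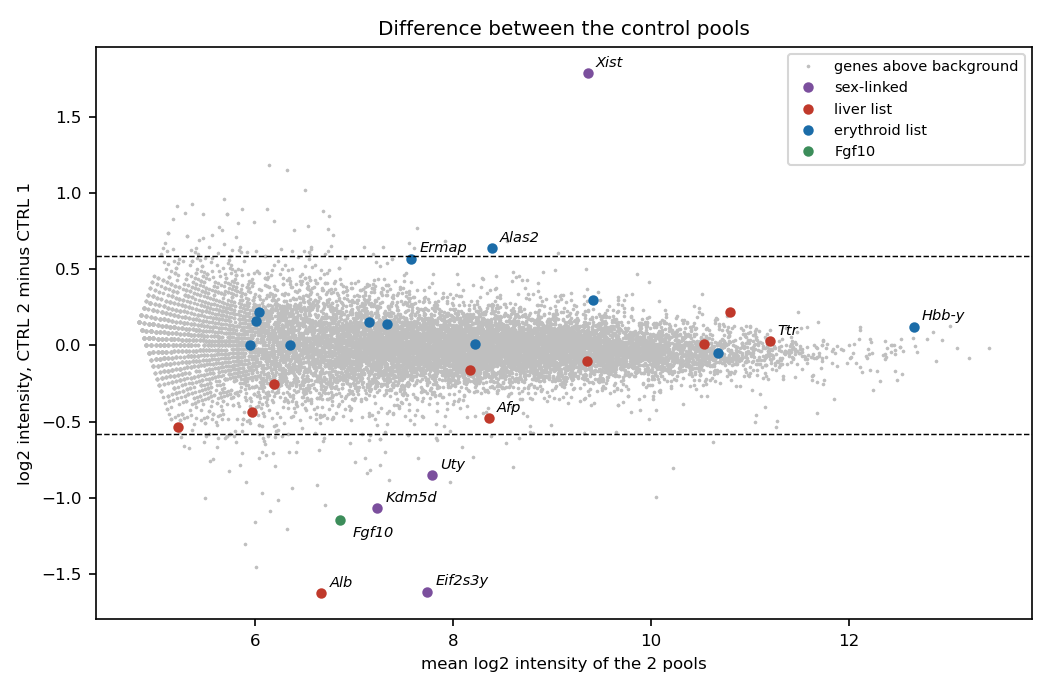
Difference of log2 intensity between the pools (vertical axis, CTRL 2 minus CTRL 1) against the mean log2 intensity (horizontal axis) for 14901 genes above background in grey, with sex-linked, liver and erythroid genes and Fgf10 in colour and 1.5-fold as dashed lines. Xist lies at the top, Alb and Eif2s3y at the bottom, and bright genes such as Hbb-y and Ttr near 0.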

How the data were processed

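RNA of 2 control pools was hybridised to Affymetrix whole-transcript arrays after isothermal cDNA amplification, per the labels' protocols. The authors deposited intensity values in whole numbers on a linear scale, and the submitters' processing notes name RMA with no settings. RMA usually forces arrays to the same distribution, which removes differences in total signal. The notes do not state whether the 2 arrays were normalised with the other 4. Rounding left 2711 genes with equal values in both pools. No detection calls or genome build are given in the sources used here.

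Of 24972 rows, 24014 were named through the platform annotation, 958 stayed unnamed and were not analysed here, and 4 symbols with several rows kept the brightest, which left 24010 genes. From the deposited intensity, log2 was computed with Python 3.11.15, pandas 2.3.3 and numpy 2.4.6, with no pseudocount. Gene classes and promoters came from RefSeq (GRCm38.p6). The scripts were tested on simulated data. There was no test between groups, and 2 arrays limit the precision. The members and lists were chosen with earlier results of these data known. Named genes were the 20 brightest protein-coding genes and transcription factors, the 10 largest differences each way, the 5 brightest of each list, its defining genes at background, all hormone genes and a fixed set of markers. Others are named as examples of their list, and list genes whose symbol no row carried were not analysed here.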

Additional observations from a re-analysis of the deposited data

How the results depend on the processing

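The fold threshold, genes tested, pseudocount, background rule and promoter window moved 3 results. The count of genes past 1.5-fold between the pools was 334; it was 34 at 2-fold, 150 over genes above background only and 86 with log2(intensity + 16), while centring each array on its median left it at 334. The count of transcription factors above background was 438; with keratin-associated protein and defensin genes as the silent set, an alternative chosen after seeing the data, it was 290, and with the 99th percentile of the receptor genes 310. The gap in GGGCGG between brightest and dimmest group was 47.5 percentage points; in all 300 bases of an entry it was 63.3, and among genes above background only 20.3. The count of genes above background stayed within 1.5 times of 14901: it was 11038 at the 99th percentile, 10608 with the other silent set, and 15065 to 15377 with 1 pool alone. With 1 pool alone, transcription factors above background numbered 446 to 458, and 19 of the 20 brightest protein-coding genes were shared either way. Of 22 lists, 17 had a median above the 50th percentile by the mean of both pools, 17 in each pool alone and 16 among protein-coding genes only. Against protein-coding genes only, list medians were lower by up to 8.15 points. With 1 pool alone, the percentiles of 24 named genes moved by up to 10.2 points. No paired analysis was possible because only the control group was used. Protein length by level was not run, since no protein table was used here. Dim signals and rounding limit what is said of genes near the background.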

Other observations

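Imprinted genes, which are read from the copy of a single parent and many of which steer fetal growth, were among the brightest of both pools. They were picked by eye after the values were seen, so their level is a description only. Mest read 6702 and 6516, Peg3 5877 and 5838, the RNA H19 5701 and 5587, and Grb10 5446 and 5156. Igf2, a fetal growth factor, read 3528 and 3285, Plagl1, a zinc finger factor, 3381 and 3444, Dlk1 1963 and 1848, the RNA Meg3 1716 and 1537, the receptor Igf2r 1344 and 1449, and the cell cycle inhibitor Cdkn1c 1330 and 1240. The largest difference between the pools among these 10 was that of Meg3 (1.12-fold), and the lowest of them, Cdkn1c, lay at percentile 96.8.

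Outside protein-coding genes, signal was uneven between classes. Of 105 small nucleolar RNA genes, 90 were above background, against 757 of 2696 long non-coding RNA genes and 155 of 535 miRNA genes. Rn7sk, the RNA that holds back the elongation factor P-TEFb, read 9767 and 9214, and Rmrp 5510 and 4693. Genes that cells switch on fast on stimulation, picked after the values were seen, were spread widely: Jun read 862 and 809, Myc 662 and 681, Klf6 421 and 506, Egr1 182 and 170, the inducible chaperone Hspa1a 79 and 87, and Fos 64 and 69.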
